A study of Drosophila melanogaster with 3 samples.

Results

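Chromatin immunoprecipitation followed by sequencing (ChIP-seq) maps where a protein sits on DNA, and it was used here to map the nuclear receptor Hr51 in Drosophila melanogaster embryos. The 3 samples were biological replicates of 1 group: whole, mixed-sex embryos aged 0 to 24 h of the strain Dhr51-GFP, a transgenic line in which Hr51 carried GFP at its C terminus. Immunoprecipitation targeted the GFP tag according to the description of the samples, although a further label names the antibody as Hr51. Neither a second genotype nor a control library was among the samples, so every comparison was made between regions of the genome within a replicate. Nothing used here states what drove the transgene, and a whole embryo mixes all its tissues. No files of read counts were used, so the depth behind each peak is unknown.

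The peaks described lie in pericentromeric heterochromatin and on chromosome 4. A peak of the pooled list was a member when it was on chromosome 4, or when its summit was beyond 22000000 on 2L, 22900000 on 3L or 21500000 on X, or below 4200000 on 3R, in build dm6. This rule uses position only and no measured value. It kept 280 of the 30000 pooled peaks, of which 129 were on chromosome 4, 61 on X, 38 on 2L, 32 on 3L and 20 on 3R. The pericentromere of 2R was not analysed here. The pooled list is labelled as peaks and background, and the lowest −log10 q of a member was 0.0687, so the members include weak entries. The authors' peak signal has no common scale between lists, and it was used only as a rank within its own list, rank 1 being the highest.

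Pericentromeric heterochromatin is the compact chromatin around centromeres, rich in transposable elements and packaged by methylation of histone H3 lysine 9 and the protein HP1. The small chromosome 4 of the fly carries the same marks along most of its length, yet its genes are active and many of them act in development. Hr51, also known as unfulfilled, is a nuclear receptor best known for its part in the maturation of mushroom body neurons.

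The sequences at the summits of highest signal in each window are shown so that the strongest sites can be read, with a member that holds a searched motif. Each is given 5′ to 3′ on the plus strand of the Release 6 genome, with 50 bases to either side of the summit unless stated, with searched motifs in capitals. The member of highest signal on chromosome 4, chr4:497854-497954, lies 3906 bp from the nearest protein-coding start site, that of zfh2, which encodes a zinc-finger homeodomain transcription factor.
zfh2, chromosome 4: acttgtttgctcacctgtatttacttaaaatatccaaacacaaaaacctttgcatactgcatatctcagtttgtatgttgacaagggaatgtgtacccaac
The highest on X, chrX:21594053-21594153, is intergenic, 10577 bp from the start of GCS2alpha, the alpha subunit of glucosidase II in the endoplasmic reticulum.
GCS2alpha, X: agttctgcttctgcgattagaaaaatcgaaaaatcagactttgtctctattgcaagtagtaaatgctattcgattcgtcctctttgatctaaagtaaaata
The highest on 3R, chr3R:4175698-4175798, is in a coding exon of CG12581.
CG12581, 3R: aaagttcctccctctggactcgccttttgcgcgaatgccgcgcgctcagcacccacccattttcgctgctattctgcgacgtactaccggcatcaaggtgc
The highest on 3L is at the promoter of RpL10, a protein of the large ribosomal subunit, and the 87 bases outside annotated untranslated sequence are chr3L:23095472-23095558.
RpL10, 3L: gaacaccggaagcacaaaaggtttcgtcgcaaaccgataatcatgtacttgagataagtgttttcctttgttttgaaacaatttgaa
The highest on 2L is at the promoter of CG3651, and only the 36 bases upstream of its untranslated sequence are given, chr2L:22121804-22121839, which stop short of the summit and of an ACACTG and a GAGAG within 50 bp of it.
CG3651, 2L: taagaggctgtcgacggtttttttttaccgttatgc
The peak at the promoter of PlexA, a receptor for semaphorins in axon guidance, is the sole member in the authors' list of reproducible peaks with TATCGATA, the DNA replication-related element of many Drosophila promoters, at chr4:1027159-1027259.
PlexA, chromosome 4: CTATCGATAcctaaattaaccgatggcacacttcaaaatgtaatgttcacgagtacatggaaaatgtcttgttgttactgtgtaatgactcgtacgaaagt
A peak at the promoter of flam, chrX:21631628-21631728, is added, chosen after its values were seen. flam is a long non-coding RNA, the precursor of piRNAs that silence gypsy-family retrotransposons in the follicle cells of the ovary.
flam, X: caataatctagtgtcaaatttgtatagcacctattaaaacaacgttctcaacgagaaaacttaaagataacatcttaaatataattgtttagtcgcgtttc

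Peaks were sparse in the pericentromeric windows and moderately sparse on chromosome 4. The 5 windows together held 451, 375 and 302 peaks in the lists of replicates 1, 2 and 3, which is 32.0, 26.6 and 21.4 peaks per Mb. The rest of 2L, 3L, 3R and X held 253 per Mb in each replicate. Each replicate list was 30000 peaks long, so a density is relative to the other regions of its own list. The near-equal values of the rest partly reflect this equal length, and their small spread is not a measure of agreement. The log2 ratio of the densities was −3.27 ± 0.291 (SD, n = 3), below 0 in 3 of 3 replicates, and the exact two-sided sign-flip permutation test gave p = 0.25, the smallest that 3 replicates allow. No comparison over these 3 replicates can therefore pass a threshold of 0.05, and the spread between replicates is the guide throughout.

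The windows differed among themselves. On 3R the density was lowest, 7.18 ± 0.83 peaks per Mb (SD, n = 3), and on 3L it was 10.6 ± 3.16. The 3L density was above that of 3R in 3 of 3 replicates, narrowly so in replicate 3, with 8.04 against 7.66. On 2L and X it was 33.3 ± 12 and 33.6 ± 2.55 per Mb, and 2L was the higher of the pair in replicates 1 and 2 but not in replicate 3. Chromosome 4 had 195, 104 and 96.2 peaks per Mb, below the rest of the arms in every replicate, with replicate 1 far above the other two.

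Much pericentromeric sequence is repeated, and a read from repeated sequence has no single place in the genome. A base was counted as single-copy where the 50 bases around it occurred only there in the reference arms, and by this count 47.1% of the pericentromeric windows, 86.9% of chromosome 4 and 95.4% of the rest were single-copy. Per Mb of single-copy sequence the pericentromeric density was 33.4 ± 5.30 peaks (SD, n = 3) against 265 ± 0.273 in the rest, a ratio of −3.00 ± 0.225 on the log2 scale in place of −4.02 ± 0.225 per Mb of all sequence. Chromosome 4 had 224, 120 and 111 peaks per single-copy Mb. The difference from the rest of the arms was thus present in all 5 windows with either denominator. Of the 280 members, 1 had a summit whose central 50 bases occurred at more than 1 place.

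**Figure D1:**
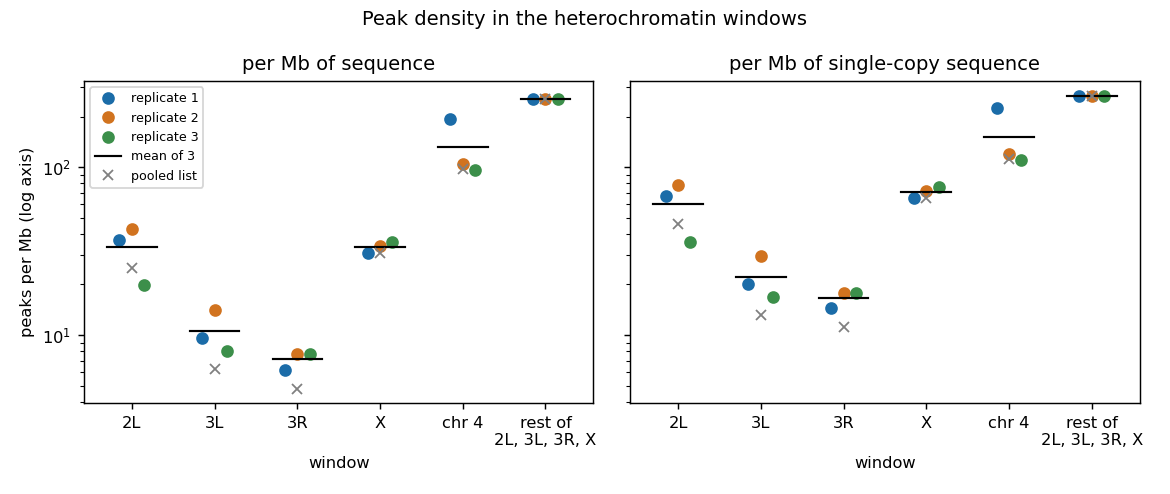
Peaks per Mb on a log axis for each of the 5 windows and the rest of 2L, 3L, 3R and X, per Mb of all sequence (left) and of single-copy sequence (right). Dots are the 3 replicates, bars their means and crosses the pooled list. The 3R window is lowest, chromosome 4 lies nearest to the rest, and replicate 1 stands above the other replicates on chromosome 4.

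Few members were among the peaks that the authors' irreproducible discovery rate (IDR) analysis kept as reproducible. The optimal IDR list held 14 of the 280 members, 5% (exact Clopper-Pearson 95% interval 2.76% to 8.25%), beside 11.7% of all pooled peaks. In the rest of the arms it held 2807 of 23949, 11.7% (11.3% to 12.1%). Chromosome 4 had 11 of these 14 and X the other 3. That is 8.53% (4.33% to 14.8%) of the chromosome 4 members and 4.92% of the X members. None of the 38, 32 and 20 members on 2L, 3L and 3R was in the IDR list, which allows shares of up to 7.89%, 9.38% and 15% by the limit of 3 counts, and of up to 9.25%, 10.9% and 16.8% by the exact interval. These intervals and limits cover the counting of peaks only. The first 3496 pooled peaks by signal, as many as the IDR list holds, gave the same counts, 14 in the windows and 2807 in the rest. Membership of the IDR list thus went with pooled rank here, and its share is not separate from the ranks by signal given below.

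The 3 members of highest signal were all on chromosome 4 and all away from promoters. The intergenic peak near zfh2 had signal 275 and pooled rank 306, and ranked 476, 342 and 273 in replicates 1, 2 and 3. A second intergenic peak, summit 424821, 19090 bp from lgs, also had signal 275 and ranked 152, 316 and 1120. The nearest gene, lgs or legless, encodes a co-factor of Wingless signalling. Both were narrow, 179 and 191 bp wide, while all other members had the width of 420 bp that is most common in the list. Over the whole pooled list 1.81% of peaks were narrower than 420 bp. The next member, summit 1113343, lay in the 3′ untranslated region of Cals, which encodes the synaptic membrane protein calsyntenin. It ranked 767, 460 and 248.

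Of the IDR members, 5 were promoter peaks of chromosome 4 genes, a promoter peak being one with its summit within 500 bp of an annotated start site. The highest was at Sox102F, a Sox-family transcription factor, with its summit at 807536, 189 bp from the start, with ranks 951, 690 and 1496. The peak at gw, or gawky, a GW182 protein of microRNA silencing, had its summit at 660076 and ranked 1152, 1001 and 973. These ranks are close to each other in all 3 replicates. RpS3A, a protein of the small ribosomal subunit, had a peak at 67231, 24 bp from its start, with ranks 1284 and 817 in replicates 1 and 2 but 8690 in replicate 3. PlexA ranked 4835, 2578 and 2283. The promoter peak of lgs, at 444024, ranked 3562, 2344 and 15226, the weakest single rank of any IDR member. Replicate 3 is thus the low replicate at RpS3A and lgs, and replicate 1 at PlexA.

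The remaining 3 IDR members of chromosome 4 were near Asator and fuss. Asator, a kinase of the tau-tubulin kinase family, had an intergenic peak at 489538, 544 bp from a start site, with ranks 1671, 1833 and 895, and an intronic peak at 486715, 682 bp from one, with ranks 1463, 1090 and 2056. The peak at 983005, 4516 bp from fuss, a Ski/Sno family gene, ranked 3318, 2833 and 2378. Between 400 and 500 kb, a stretch that holds lgs, Asator and the peak near zfh2, chromosome 4 held 21 of its 129 members and 5 of its 11 IDR members, with 5 protein-coding genes starting there.

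On X, the intergenic peak 10577 bp from GCS2alpha had rank 1306 in replicate 1, 1452 in replicate 2 and 10254 in replicate 3. The flam peak, 213 bp upstream of the annotated start of flam at 21631891, ranked 2628, 2115 and 5805. No summit of any replicate lay within the annotated body of flam, which ends at 21790731. The 250 kb stretches of the X window that hold flam were 45.5% and 22.9% single-copy, and what part this had was not tested. The nearest protein-coding start to this peak is that of DIP1, a double-stranded RNA-binding protein, 1530 bp away. The intronic peak at 22837603, 1344 bp from a start of fog, the secreted ligand of gastrulation, ranked 6463, 8358 and 2026. Replicate 3 gave the lowest place to the first 2 of these and the highest to the third.

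All 14 IDR members had a summit within 150 bp in each of the 3 replicate lists. The first 3496 peaks by signal of a replicate, as many as the IDR list holds, included 8 of the 14 in 3 replicates, 4 in 2 replicates and 2 in 1 replicate. The mean G+C content within 50 bp of these summits was 35.4%, against 43.1% over all members. In the rest of the arms it was 37.4% at IDR peaks and 45.7% at all pooled peaks, so a lower value was not particular to the windows.

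**Figure D2:**
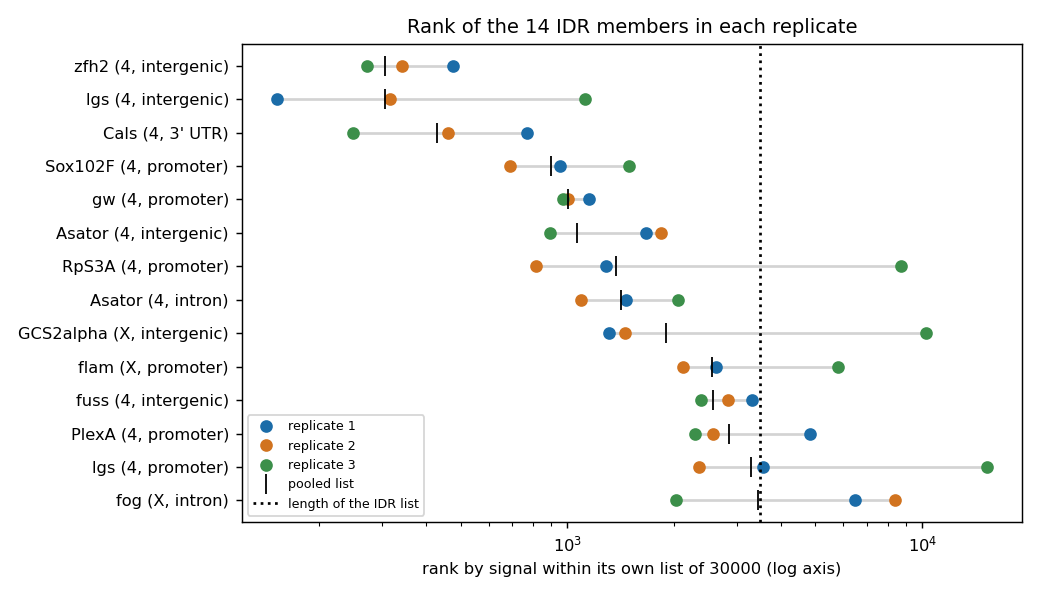
Rank by signal of the 14 IDR members in each replicate (dots) and in the pooled list (tick), on a log axis, with the nearest protein-coding gene (flam where the peak is at its promoter), the arm and the genomic class. The dotted line is the length of the IDR list, 3496. The gw peak has nearly the same rank in all replicates, while RpS3A, GCS2alpha, flam and the lgs promoter fall beyond the line in replicate 3, PlexA, lgs and fog in replicate 1, and fog in replicate 2.

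Just below the IDR list came the promoter peak of l(1)G0196, an inositol pyrophosphate kinase on X, with pooled rank 3787 and ranks 5263, 4090 and 3194. CG3651 on 2L followed with pooled rank 3850. It ranked 4871 and 11665 in replicates 1 and 3 and had no summit within 150 bp in replicate 2, where another summit at this promoter ranked 2081. The other pericentromeric members of high signal were weaker. CycK, the cyclin partner of Cdk12, had the next peak on 2L, with pooled rank 4867. On 3R, CG12581 had pooled rank 4310 but rank 26576 in replicate 1, and the peak near beta-Man, a beta-mannosidase, had pooled rank 11591. On 3L, RpL10 had pooled rank 5999 and no summit within 150 bp in replicate 3, where its promoter peak ranked 14506. The intronic peak of l(3)80Fg, pooled rank 6104, was the steadiest of them, ranking 6165, 5333 and 5783.

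Across the replicates the window peaks were of lower rank than peaks elsewhere. The share of window peaks among the first 3496 by signal was 4.66%, 5.07% and 5.63%, beside a background of 11.7% in each list. The difference from the rest of the arms was −6.63 ± 0.515 percentage points (SD, n = 3), lower in 3 of 3 replicates (exact sign-flip permutation p = 0.25). The median rank percentile, where 0 is the highest signal, was 56.6, 61.8 and 62.0 in the windows, 10.1 ± 3.11 points further down than in the rest (exact permutation p = 0.25). Both differences were larger in the pericentromeric windows, −9.21 ± 0.448 for the share and 14.4 ± 6.25 for the median rank, than on chromosome 4, where they were −3.20 ± 2.05 and 3.44 ± 1.66 (SD, n = 3). The pericentromeric share rests on 5 peaks in each replicate.

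Promoter peaks and other peaks were then ranked apart, a split chosen after the values were seen. Among the promoter peaks of a replicate, 23.6% ± 1.07 (SD, n = 3) in the rest of the arms were among the first 3496, against 5.76% ± 2.02 in the pericentromeric windows. On chromosome 4 the share was 7.50%, 20.5% and 12.2% in replicates 1, 2 and 3, replicate 2 lying near the rest. The differences of the pericentromeric windows and of chromosome 4 from the rest were −17.8 ± 0.962 and −10.1 ± 5.70 percentage points, each negative in 3 of 3 replicates (exact sign-flip permutation p = 0.25 for each). For all other peaks the share was 6.66% ± 0.118 in the rest and 1.27% ± 0.993 in the pericentromeric windows. On chromosome 4 it was 5.59%, 6.00% and 7.59%, a difference of −0.269 ± 0.953 points that was smaller than its spread. Pericentromeric peaks of both kinds thus lay lower than the rest, and on chromosome 4 those at promoters did. As a ratio of the rest to the windows, the pericentromeric values were 4.09 at promoters and 5.25 at other peaks, so which kind differed more depends on the scale, and this was not tested.

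**Figure D3:**
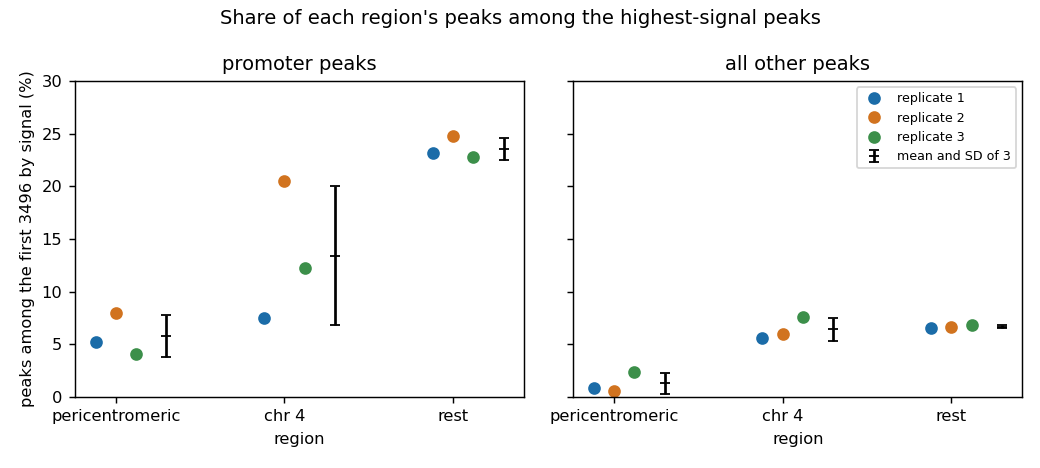
Percent of promoter peaks (left) and of all other peaks (right) that were among the first 3496 by signal of their replicate, in the pericentromeric windows, on chromosome 4 and in the rest of 2L, 3L, 3R and X. Dots are replicates and bars the mean and SD of 3. Pericentromeric peaks are lower in both panels, and chromosome 4 lies with the rest only in the right panel.

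Over all windows, the share of members found again in the replicates differed from that of other pooled peaks by less than its spread. A summit within 150 bp was present for 61.4%, 53.6% and 47.1% of members in replicates 1, 2 and 3, against 59.2%, 59.5% and 59.2% in the rest. The difference was −5.28 ± 7.15 points (SD, n = 3; exact sign-flip permutation p = 0.5). This value joins unlike parts. Without chromosome 4 the difference was −9.66 ± 6.82 points, lower in 3 of 3 replicates (exact permutation p = 0.25), while on chromosome 4 the share was 76.0% in replicate 1 and 49.6% and 51.9% in replicates 2 and 3. Only 51 of the 280 members, 18.2%, were found in all 3 replicates, beside 25.1% of all pooled peaks, and 24 were found in none. Among peaks outside the IDR list the shares were closer, 13.9% of 266 members and 16.2% in the rest. The pooled list was made from the same reads, so these shares are not independent of membership. A match by chance is also likelier where peaks are dense, as in the rest, and the shares were not corrected for this. Over all windows the difference was −3.27 points with matches within 75 bp and −7.13 points within 300 bp.

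Replicate 1 stood apart on chromosome 4. Its list held 259 peaks there against 139 and 128 in replicates 2 and 3. Of these, 177 (68.3%) had no summit within 150 bp in either other replicate, with a median rank of 18758. The matching shares were 56.1% and 48.4% in replicates 2 and 3, and 46.6%, 48.6% and 47.8% in the rest of the arms. In the pericentromeric windows the shares were 66.7%, 72.0% and 65.5%, so the chromosome 4 share of replicate 1 was close to those. Replicate 1 was not the highest there in number, since the 3 lists held 192, 236 and 174 peaks. What set replicate 1 apart was not tested. Matches by chance also depend on the density of peaks, which differed between regions, and these shares were not corrected for it.

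In the pooled list promoters were the most frequent genomic class of the members, while introns were slightly ahead of promoters in the rest of the arms, with 31.7% against 31.3%. Promoters held 102 of the 280 summits (36.4%), intergenic sequence 57, introns 55 and coding exons 47. Over the replicates the promoter share was 34.8%, 23.7% and 32.5%, and differed from the rest of the arms by 0.205 ± 4.33 points (SD, n = 3; exact permutation p = 1). In replicate 2 introns led in the windows too, with 29.9%. Intergenic summits were more frequent in the windows by 5.69 ± 3.32 points, and introns differed by −5.77 ± 3.05 points, each in the same direction in 3 of 3 replicates (exact permutation p = 0.25). On chromosome 4 alone the intergenic difference was 1.84 ± 2.27 points, smaller than its spread. Intergenic sequence makes up 49.4% of the window bases and 23.2% of the rest. In both regions intergenic summits were thus less frequent than the bases would give. Promoter sequence makes up only 2.19% of the pericentromeric windows and 10.9% of chromosome 4, against 14.9% of the rest. Pooled summits were thus at promoters 16.4 times as often as the bases would give in the pericentromeric windows, 3.42 times on chromosome 4 and 2.10 times in the rest. In the replicates the pericentromeric ratio was 18.3, 9.69 and 12.9, and that of the rest 2.10, 1.91 and 2.06, so the ranges do not overlap. These base shares count repeated sequence too, and 47.1% of pericentromeric bases were single-copy against 95.4% in the rest. How far this difference enters the ratios was not tested.

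A larger share of summits lay in transposable elements in the windows than elsewhere. Annotated elements lay under 30 of the 280 summits (10.7%), against 0.217% of pooled summits in the rest. The replicates gave 10.4%, 13.3% and 13.2% against 0.211% ± 0.0190, a difference of 12.1 ± 1.67 points (SD, n = 3; exact permutation p = 0.25). Elements cover 16.9% of the window bases and 3.81% of the rest, repeated sequence included. In both regions summits were thus in them less often than these bases would give. INE-1, a short and abundant element of the Drosophila genome, accounted for 19 of the 30, 13 of them on chromosome 4. The others included 3 in gypsy8, a retrotransposon, and 2 in 1360, a DNA transposon also called hoppel. These peaks were weak: the best pooled rank was 10624, none was in the IDR list or matched a peak among the first 3496 of a replicate, and 1 of 30 was found in all 3 replicates.

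Base composition at summits differed on chromosome 4. The mean G+C content within 50 bp of summits was 38.3%, 42.4% and 39.0% there in the 3 replicates, a difference of −5.32 ± 1.12 points from the rest in the same replicate (SD, n = 3; lower in 3 of 3; exact permutation p = 0.25). In the pericentromeric windows the difference was −0.723 ± 2.13 points, smaller than its spread. The G+C content of each region as a whole was not measured, so these differences may not be particular to the peaks. Whether base composition had a part in the ranks was not tested.

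Of the 241 protein-coding genes with a start site in the windows, 80 (33.2%) had a promoter peak in the pooled list, beside 54.2% of all 13945 genes, and 5 (2.07%) had one in the IDR list, beside 19.1%. All 5 were on chromosome 4: Sox102F, gw, RpS3A, PlexA and lgs. None of the 161 pericentromeric genes had an IDR promoter peak (exact 95% interval up to 2.27%), against 19.6% of the 10852 genes in the rest of the arms.

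In the relaxed lists 37.3%, 24.8% and 25.5% of pericentromeric genes had a promoter peak in replicates 1, 2 and 3, which was 23.6 ± 5.58 points below the rest of the arms (SD, n = 3; lower in 3 of 3; exact permutation p = 0.25). On chromosome 4 the shares were 67.5%, 37.5% and 41.2% against 52.8% ± 1.75 in the rest. Replicate 1 lay above the rest and the other 2 below, so the mean difference of −4.08 ± 14.8 points has no settled direction. It was 1.41 with promoters of 250 bp, and 0.635 without replicate 2. Of the 80 chromosome 4 genes, 19 had a promoter peak in all 3 replicates (23.8%, against 37.8% of genes in the rest), 19 in replicate 1 alone and 19 in none.

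Gene shares were then read without repeated promoters, a step added after the values were seen. A tandem array of 21 short, similar genes, from CG40813 to CG41562, lies at chrX:22143058-22252414, where 4.45% of bases were single-copy. No peak of any dm6 list fell in it. The array sits in a stretch without peaks that begins right after the flam peak and runs for 812 kb in the pooled list, and for 812, 814 and 741 kb in replicates 1, 2 and 3. Within it, the sequence 250 to 500 kb and 500 to 750 kb from the border was 22.9% and 10.4% single-copy. With only genes whose promoter was at least 50% single-copy, 23 of 41 X genes (56.1%; exact interval 39.8% to 71.5%) had a pooled promoter peak, beside 55.8% in the rest. On 2L it was 6 of 35 (17.1%; 6.56% to 33.6%), on 3L 8 of 40 (20%; 9.05% to 35.6%) and on 3R 4 of 14 (28.6%; 8.39% to 58.1%). The 2L and 3L intervals lie below the X share, and that of 3R spans it. In replicate 1 the 3L share was 47.5%, against 20% and 15% in replicates 2 and 3. The X genes still had no IDR promoter peak, 0 of 41 (up to 8.60%) against 20.1% of genes with such promoters in the rest. The interval of the X share in the relaxed list spans the value of the rest, and its IDR interval does not. These intervals take genes as independent, although neighbouring genes can share a peak, and they do not cover the spread between replicates. In the replicates the X share was 60.98%, 48.78% and 53.66%, against 55.71%, 52.15% and 54.14% in the rest. Over all pericentromeric genes with such promoters the difference was −17.8 ± 7.2 points (SD, n = 3; exact permutation p = 0.25).

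**Figure D4:**
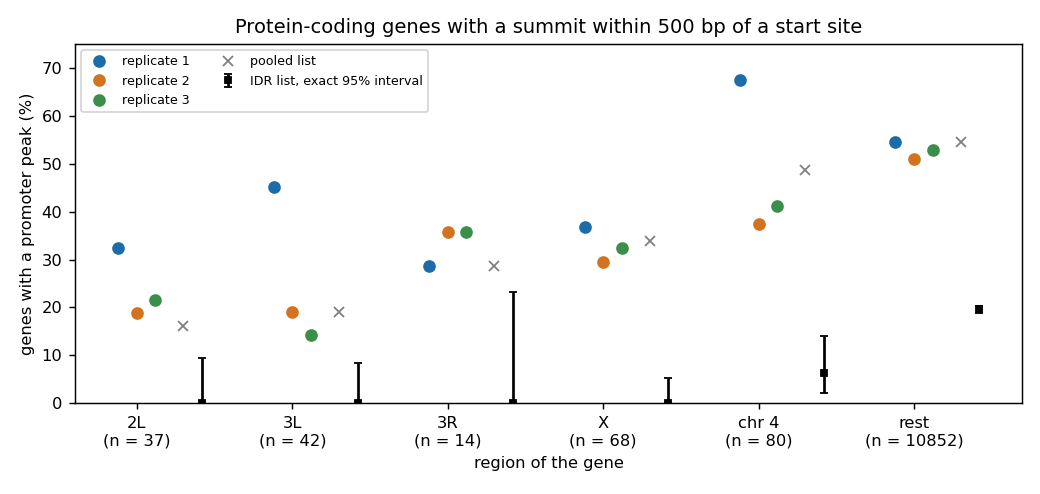
Percent of protein-coding genes with a summit within 500 bp of a start site, by region, with n genes under each. Dots are the replicates, crosses the pooled list and squares the IDR list with exact 95% intervals. No pericentromeric window has a gene in the IDR list, and chromosome 4 in replicate 1 is the highest point.

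Gene lists were then read for the kinds of genes these regions carry. The name of a list is a working label and need not hold for every gene in it. Of 15 transcription factor and developmental genes of chromosome 4, 9 had a promoter peak in the pooled list, and 11, 8 and 10 had one in the replicates. The strongest were Sox102F, gw, lgs and pan, the last being the TCF transcription factor of Wingless signalling, with signal 71.7 and pooled rank 3879. fuss had no promoter peak in any list. Of 17 signalling and neural genes, 8 had one, led by PlexA with signal 88.3. Next were Crk, an adaptor protein, with 53.0, Cadps, a regulator of dense-core vesicles, with 49.8, and PlexB, the second plexin, with 46.6. The receptor Eph and its ligand Ephrin had none in any list, nor had dpr7, Syt7 or unc-13.

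Of 12 housekeeping genes of chromosome 4, 7 had a pooled promoter peak, while the replicates gave 11, 5 and 5. RpS3A led with signal 135, followed by ATPsynbeta, a subunit of the mitochondrial ATP synthase, with 61.0, Asator with 59.4 and the kinase gene Dyrk3 with 49.8. The peaks of Dyrk3 and Cadps are the same peak, between their adjacent starts. Of 19 genes listed as pericentromeric essential genes 6 had a pooled promoter peak, none of these in the IDR list, and the replicates gave 12, 8 and 6. stnA and stnB, which share a transcript and act in synaptic vesicle recycling, shared a peak of signal 56.7. su(f), the fly subunit of the cleavage stimulation factor for messenger RNA 3′ ends, had 51.0, and the ribosomal protein gene RpL15 had 48.9. The piRNA factor gene AGO3 and the ecdysteroid synthesis gene spok had no promoter peak in any list. Shares over these lists were 60.0%, 47.1%, 58.3% and 31.6% in the pooled list, beside 54.2% of all genes.

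In the pooled list peaks of the autosomal windows lay mostly near the euchromatic edge. Of the pooled members 35 of 38 on 2L, 18 of 32 on 3L and 19 of 20 on 3R lay within 500 kb of the border, where 23 of 37, 14 of 42 and 9 of 14 genes start. The replicates gave lower shares in part. On 2L these were 71.4%, 69.2% and 96.7%, on 3L 38.8%, 44.4% and 58.5%, and on 3R 92.3%, 62.5% and 65.6%. On X 10 of 61 pooled members lay there, beside 9 of 68 genes. Over all 4 windows the first 500 kb held 54.3% of pooled members, and 47.4%, 44.1% and 50% of the peaks of the replicates. Single-copy sequence was also most frequent in the first 250 kb of 2L, 3L and 3R, at 92.34%, 81.15% and 61.27%. The highest values of any later 250 kb were 64.08%, 68.28% and 54.59%. On X the values per 250 kb from the border inward began 45.53%, 22.89%, 10.43%, 50.97% and 86.73%. The stretches of 22.89% and 10.43% held no pooled peak. Whether the place of the peaks followed single-copy sequence was not tested. The peaks nearest to the borders were weak on both sides. Inside, they had pooled ranks of 26338 on 2L, 18172 on 3L, 21234 on 3R and 10274 on X. Outside, the ranks were 22843, 21590, 26723 and 19405.

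**Figure D5:**
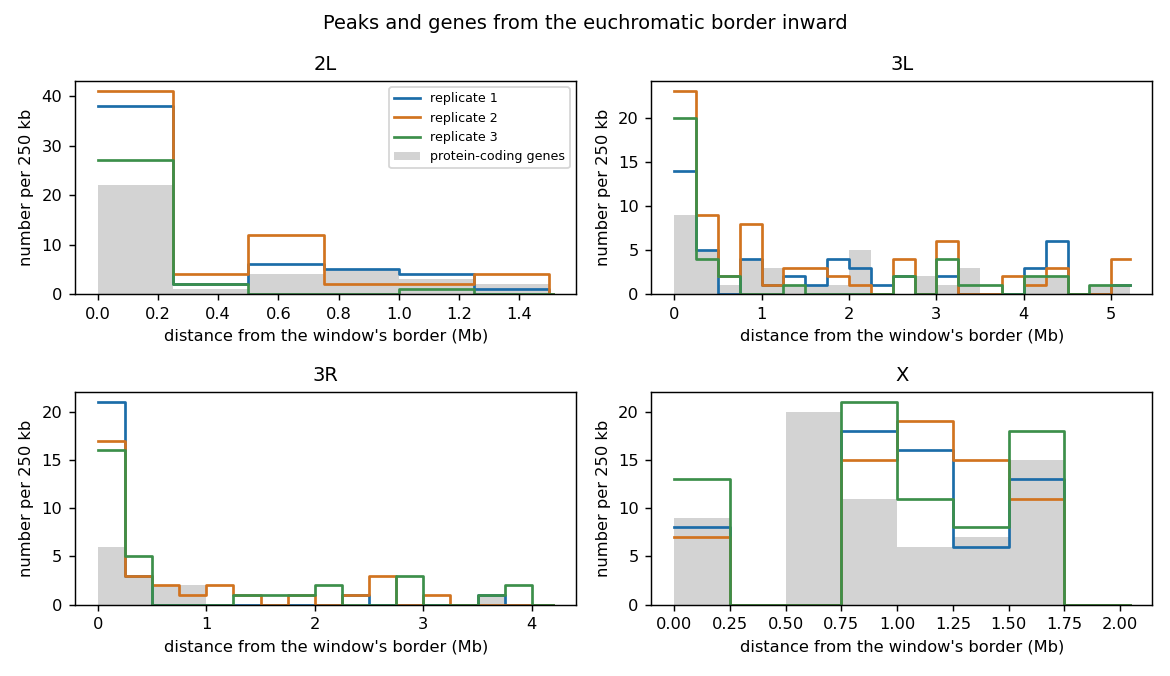
Peaks per 250 kb in each replicate (lines) and protein-coding genes (grey bars) by distance from the euchromatic border of the 4 pericentromeric windows. On 2L, 3L and 3R the first bin holds the most peaks, and on X most peaks lie beyond 0.75 Mb, with an empty stretch before them that includes the tandem gene array.

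Counts of 7 short motifs at member summits were mostly small and are given as a description. Each was searched on both strands within 50 bp of the summit, and the same width was read 500 bp to either side. TATCGATA was at 2 of 280 summits (0.714%; 1.07% at the flanks and 1.14% at pooled summits in the rest). AAGTCA, a core bound by the related receptor tailless, was at 17 (6.07%; 4.29% and 4.33%), and AGGTCA, the nuclear receptor core half-site, at 8 (2.86%; 2.68% and 2.53%). CGATAG, which can overlap TATCGATA, was at 10 (3.57%; 3.39% and 4.15%), ACACTG at 15 (5.36%; 4.11% and 6.16%) and GGTCACACT at 0 (0%; 0% and 0.610%). The exact 95% interval for GGTCACACT reaches 1.31%. GAGAG, the core of GAGA elements, was at 41 (14.6%; 10.2% and 13.1%). Among the 102 promoter members GAGAG was at 19 (18.6%) against 6.86% at their flanks, and at 14.2% of promoter summits in the rest, which is within the exact 95% interval of the members' share (11.6% to 27.6%). That no such letters stand in most of the printed sequences says nothing about a factor.

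In the other deposited build, dm3, chromosome 4 held 120 pooled peaks and 11 IDR peaks, beside 129 and 11 in dm6. The 3 replicates had 250, 130 and 125, so replicate 1 was again the highest. The heterochromatin scaffolds of dm3, which hold sequence not placed on the arms of that build, had 33 pooled peaks and 53, 67 and 51 in the replicates. None was in the IDR list, and the best rank in any list was 5238.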

How the data were processed

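Peak lists of Hr51-eGFP ChIP-seq were used for 3 replicates, the pooled reads and the IDR analysis, in dm6 and dm3 (10 lists). Per the labels, chromatin was sonicated to 200 to 800 bp. Which aligner and caller made the lists is not given in the sources used here. Signal per peak, as deposited, comes from the authors' caller and was used as a rank within a list. The deposited −log10 q value served only to describe the pooled list. Depth is unknown. The p-values take the 3 biological replicates as units and do not measure the spread between them. In the exact sign-flip permutation test, any 3 differences of equal sign give p = 0.25.

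Annotation was Ensembl release 115 (BDGP 6.54), without transposable elements as start sites. Each summit was assigned to a promoter (500 bp) first, then untranslated region, coding exon, other exon, intron or intergenic sequence. Differences between windows and the rest of 2L, 3L, 3R and X were taken within a replicate and tested by an exact two-sided sign-flip permutation. Functions were tested on simulated lists. Python 3.11.15, numpy 2.4.6, pandas 2.3.3, scipy 1.17.1 and matplotlib 3.10.9 were used.

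The named genes were the protein-coding genes nearest to IDR members and to the 2 members of highest signal in each window, and up to 4 genes of each list with the strongest promoter peak. Further genes without promoter peaks were named after their values were seen. The 4 gene lists and the members were chosen with earlier results of these data known. Of the listed symbols, Thd1, Parp and AlgX matched no annotated gene and Haspin lies outside the windows.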

Additional observations from a re-analysis of the deposited data

How the results depend on the processing

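Of 129 alternatives, 9 turned the direction of a replicate difference, 4 moved a count or share, and 116 kept the direction of a replicate difference or left an untested value within its counting interval or 1.5 times. Sizes could still change: on chromosome 4 only, the density ratio was −1.02 in place of −3.27. With motifs read over 100 bp, summit minus flank changed sign within its counting error for TATCGATA (−0.357 to 0.179) and CGATAG (0.179 to −0.714). The 9 reversals fell on differences smaller than their spread. The promoter share difference of 0.205 points became −0.309 without chromosome 4 and −2.73 with promoters of 1000 bp, and ranged from −1.48 to 2.65 when each replicate was left out. The coding exon difference of −1.25 points became 1.26 on chromosome 4 only, 0.141 with the upper part of each list by signal and 1.18 with promoters of 1000 bp. The chromosome 4 gene share difference of −4.08 points became 1.41 with promoters of 250 bp, and ranged from −12.6 to 0.635 when each replicate was left out. The causes were not tested. The IDR share of 5% was 1.99% without chromosome 4 and 8.53% on chromosome 4 only. The count of genes listed as pericentromeric essential genes with a promoter peak fell from 6 to 3 with promoters of 250 bp. With 100 bases in place of 50, 0 members had a repeated summit sequence. The density ratio was −2.36 per single-copy Mb and −2.83 per Mb outside soft-masked sequence, both alternatives chosen after seeing the data. No paired analysis was possible because the samples form 1 group, so there are no groups of samples to pair, and windows and rest were already compared within each replicate. The unknown depth limits every count of weak peaks, and 3 replicates cannot give p below 0.25.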
